A study of Mus musculus with 62 samples.

Results

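The neocortex of mice carrying a melanoma that causes cachexia was compared with that of mock-injected mice 4 weeks after injection. In cachexia, which some tumours bring about, muscle and fat are lost. The 10 libraries of this comparison were those labelled CAC at 4 weeks (5 libraries, injected with cachectic melanoma cells) and those labelled Con at 4 weeks (5 libraries, mock injected), of 62 libraries in 12 groups in the series. The 5 libraries of week 4 from mice that received non-cachectic melanoma cells (NCAC) are given beside them as a tumour-bearing group. All animals are labelled as female and 2 months old, with no transgene or other agent named. The sample labels give the strain as C57BL6/J whereas the series design names NCI Ath/nude mice as the hosts. The source of the conflict was not resolved, and athymic nude mice lack most mature T cells but keep B cells and myeloid cells. The labels give the same host, sex and age for tumour and mock groups, and no result below compares hosts. Whether the mice had the same genetic background was not tested. Libraries are labelled as biological replicates without naming the animals, so p-values measure the spread between libraries. That spread was pooled over the 12 groups of the series. The protocol text also mentions LLC cells and 3 weeks, which match neither the melanoma cells nor the weeks of the labels. Week 4 libraries held 46.6 to 49.6 M reads, as estimated from the smallest steps of the deposited values. CAC replicates 1 and 4 stood apart in striatum markers, with mean log2(TPM + 1) of 3.37 and 4.92 where mock libraries had 5.81 to 6.41. The tumour cells themselves, their injection site and the body weights of the mice are not analysed here, so which CAC mice had begun to waste by 4 weeks is not known from the files.

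In wasting illness the brain meets signals that circulate in the blood. Cytokines of the interleukin 6 family act through receptors such as OSMR and the transcription factor STAT3, whose targets include the feedback inhibitor Socs3 and the secreted proteins lipocalin 2 (Lcn2) and leucine-rich alpha-2-glycoprotein 1 (Lrg1). Adrenal glucocorticoids act through a nuclear receptor whose targets include Fkbp5, a chaperone that feeds back on that receptor. Endothelial cells of brain vessels and astrocytes are among the first cells of the brain that such signals reach.

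Few genes separated the CAC group from mock at 4 weeks. Levels are TPM, transcript abundance per length of transcript scaled to the same sum in every library, and differences are of log2(TPM + 1), given as CAC minus mock ± SE, which understates the change of genes of low level. Of 15115 genes tested with limma, 5 were higher in CAC at a Benjamini-Hochberg adjusted p under 0.05 (0.0331% of the genes tested) and 0 were lower (0%). The 5 were Zfp459, Ccdc9, Grrp1, Diablo and Zfos1. These calls rest on the spread pooled over all 62 libraries, and a fit of only the 10 libraries compared called 0 genes. At an unadjusted p under 0.05 the pooled fit had 1586 higher genes (10.5%) and 364 lower ones (2.41%). The fit of only the 10 libraries had 776 genes at that p, 537 of them higher. There were 803 without CAC replicate 1, 716 with the striatum marker mean of each library as a term, and 3612 without CAC replicate 5. Unadjusted p-values below are from the pooled fit unless another is named. With voom, limma's model for counts, run on estimated reads, there was 1 gene called higher and 0 lower. Over all tested genes 63.5% of the differences were positive, that is, higher in CAC, and their median was 0.037. After TMM scaling, a trimmed mean that centres the libraries, the median was -0.00023 and the genes at an unadjusted p under 0.05 were split into 1056 higher of 1937.

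The count of called genes rested on single libraries. Without CAC replicate 5 it was 747, of which 665 were higher and 82 lower, and all 5 genes above were among them. Without CAC replicate 3 it was 23. It was 1 without CAC replicate 1, 2 or 4, 1 without mock replicate 1, 2 or 5, 3 without mock replicate 3 and 2 without mock replicate 4. The CAC libraries were all sequenced on lane 3 and the mock libraries all on lane 4, so lane and group cannot be told apart within this comparison. With lane as a term in the fit of all 12 groups, 0 genes were called and 456 had an unadjusted p under 0.05, but that term rested on 1 NCAC library.

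The NCAC libraries of week 4 were split between the lanes, with 4 on lane 3 and 1 on lane 4. Those mice also received tumour cells, so NCAC against mock does not separate lane from tumour. NCAC against mock gave 0 called genes with limma and 0 with voom, and 103 genes, higher and lower together, at an unadjusted p under 0.05 (0.681%). The same 5 CAC libraries compared with NCAC gave 1 gene called, Zfp459, which was higher in CAC (0.00662% of the genes tested). At an unadjusted p under 0.05 there were 2420 genes, of which 2023 were higher (1296 of 2309 after TMM scaling). A fit of only the CAC and NCAC libraries of week 4 had 1140 genes at that p, 882 of them higher. Without NCAC replicate 5, so that every library compared was on lane 3, 0 genes were called and 2043 had an unadjusted p under 0.05, 1690 of them higher in CAC. Leaving out other libraries gave 1572 calls without CAC replicate 5, 286 without CAC replicate 3, 5 without NCAC replicate 1, and 0 without CAC replicate 1 or 4 or NCAC replicate 3 or 4.

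Every CAC library was above every mock library for 96 genes (0.635%) and below every mock library for 34 genes (0.225%). For NCAC against the same mock libraries the counts were 14 (0.0926%) and 25 (0.165%).

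Zfp459 encodes a zinc finger protein of the KRAB family of DNA-binding repressors. It lies on the minus strand of chromosome 13 (GRCm38, chr13:67405709-67421418) and is protein-coding. Its level was 3.19, 2.11, 4.88, 3.2 and 1.94 TPM in CAC replicates 1 to 5 and 1.01, 0.74, 1.04, 1.01 and 0.831 TPM in mock replicates 1 to 5. All 5 CAC libraries lay above all 5 mock libraries and above the NCAC range of 0.758 to 1.49 TPM. The difference from mock was 1.03 ± 0.18 (adjusted p = 0.00434, limma) and that from NCAC was 0.95 ± 0.18 (adjusted p = 0.0263). Among 22 alternative analyses its adjusted p ran from 7.37e-05 to 1, and 20 of them kept the call. The lane term and the fit of only these 10 libraries (adjusted p = 0.657) lost it. Zinc finger genes of this family have close relatives that can share reads, so its absolute level is uncertain.

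At 6 and 8 weeks Zfp459 was not called, with differences of -0.042 and 0.28. At 6 weeks the level was 1.25 ± 0.293 TPM (SD, n = 5) in CAC and 1.33 ± 0.385 TPM (n = 5) in mock. At 8 weeks it was 1.62 ± 0.59 TPM (n = 7) and 1.13 ± 0.316 TPM (n = 5). Between 4 and 6 weeks the CAC to mock difference changed by -1.08, with an unadjusted p of 6.96e-05 and an adjusted p of 0.378 in limma.

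Diablo encodes a mitochondrial protein that, once released, frees caspases from their inhibitors. Its gene is on the minus strand of chromosome 5 (GRCm38, chr5:123509765-123524176), where B3gnt4 overlaps it on the other strand. CAC replicates 1 to 5 had 12.8, 9.79, 9.11, 10.7 and 7.63 TPM and mock replicates 1 to 5 had 5.72, 6.41, 8.17, 7.94 and 6.34 TPM. CAC replicate 5 was within the mock range, and the other 4 libraries were above it. The difference was 0.47 ± 0.10 (adjusted p = 0.0365). It was not called in the later mice, where CAC and mock were at 8.42 ± 0.932 and 8.67 ± 0.82 TPM at 6 weeks (SD, n = 5 each) and at 8.16 ± 0.835 TPM (n = 7) and 8.75 ± 0.824 TPM (n = 5) at 8 weeks. The change from 4 to 8 weeks was -0.56 with an adjusted p of 0.147. Of 18 tested genes of mitochondrial apoptosis, Diablo alone was called (0.0331% of all genes were called higher), 14 were positive, beside 63.5% of all genes, and the median was 0.085. After TMM scaling 11 were positive, with a median of 0.044. Bbc3, a BH3-only activator of that route, was next by p, at 0.24 ± 0.12 (adjusted p = 0.392).

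Ccdc9 encodes a coiled-coil protein that binds the exon junction complex on spliced mRNA, and lies on the minus strand of chromosome 7 (GRCm38, chr7:16274042-16286795). It was at 30.5, 24.9, 25.5, 24.8 and 21.4 TPM in CAC replicates 1 to 5 and at 20.5, 20.8, 20.2, 19.6 and 20.7 TPM in mock replicates 1 to 5. Every CAC library was above every mock library, with CAC replicate 1 the highest and replicate 5 the nearest to mock. The difference was small, 0.30 ± 0.059 (adjusted p = 0.0365). Ccdc9 was also called higher in CAC in the separate mice of week 8, and it was not called at week 6.

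Grrp1 encodes a glycine and arginine rich protein, on the minus strand of chromosome 4 (GRCm38, chr4:134251110-134254106). Its values were 4.68, 8.91, 4.22, 6.76 and 4.49 TPM in CAC replicates 1 to 5 and 2.95, 3.14, 3.33, 2.12 and 1.91 TPM in mock replicates 1 to 5. The groups did not overlap, and CAC replicates 2 and 4 were the highest. The difference was 0.86 ± 0.17 (adjusted p = 0.0365). Grrp1 was also called higher in CAC in the separate mice of week 6 (1.17, adjusted p = 4.48e-05) and week 8 (1.13, adjusted p = 4.64e-06).

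Zfos1 is a long non-coding RNA that hosts small nucleolar RNAs, listed by RefSeq as an older symbol of Zfas1. It is on the plus strand of chromosome 2 (GRCm38, chr2:167062934-167065862), where the start of Znfx1 overlaps it on the other strand. The sources used here do not say whether counting used strand, and reads of the pair may be mixed. CAC replicates 1 to 5 had 24.7, 27.5, 21.5, 30.3 and 20.3 TPM against 17.2, 17.3, 15.9, 18.4 and 19.2 TPM in mock replicates 1 to 5. All CAC values lay above all mock values, and the difference was 0.46 ± 0.10 (adjusted p = 0.046). It was called higher at 6 weeks too (0.52, adjusted p = 0.00134) and at 8 weeks (0.58, adjusted p = 1.89e-05).

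The calls of Ccdc9, Grrp1, Diablo and Zfos1 held in 8 of 22, 7 of 22, 8 of 22 and 5 of 21 alternatives. Their adjusted p-values ran from 0.000896, 0.0118, 0.00198 and 0.00574 up to 1, which the lane term gave. The largest differences over those alternatives were 0.35, 1.06, 0.55 and 0.62, and the smallest were 0.22, 0.62, 0.37 and 0.39.

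**Figure D1:**
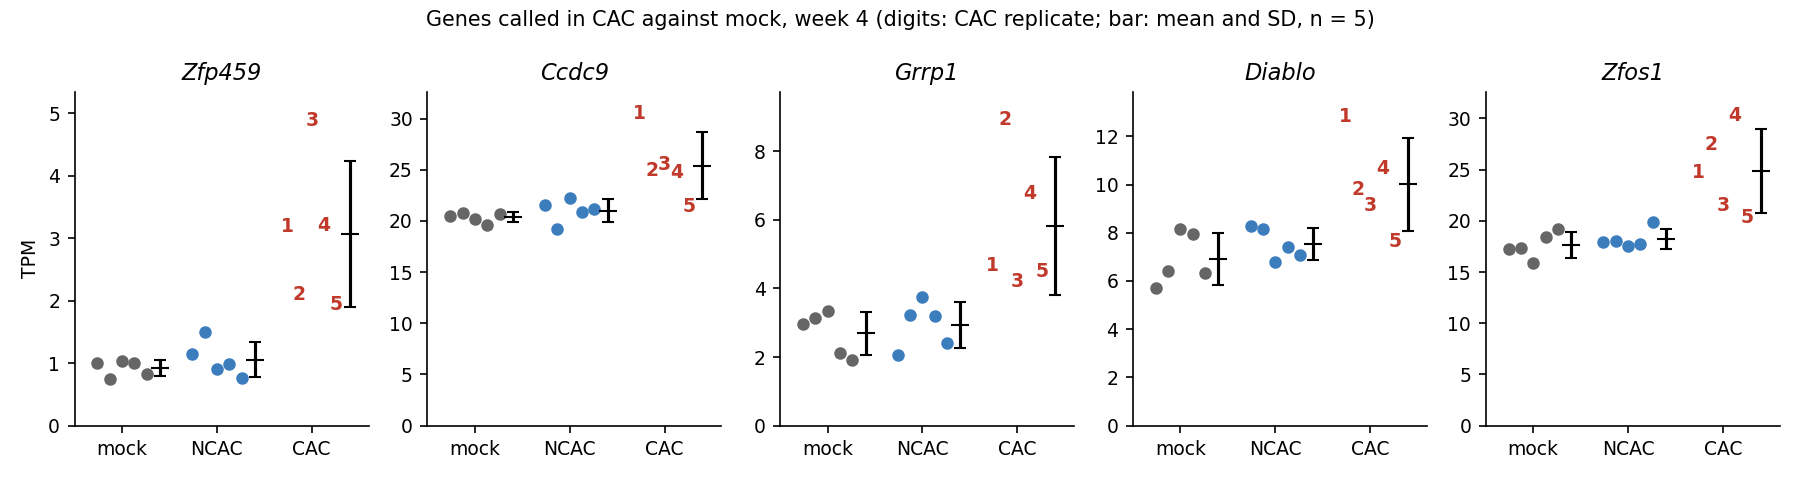
TPM of the 5 genes called higher in CAC than in mock at week 4, in each mock, NCAC and CAC library, with digits naming the CAC replicate and a bar giving the mean and SD of 5 libraries. CAC values of Zfp459, Ccdc9, Grrp1 and Zfos1 lie above all mock values, while CAC replicate 5 lies within the mock range for Diablo.

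Below the threshold the leading higher genes were Rsph10b, Elmod3, Snhg5, Ccer2 and Eml2, with differences of 0.63, 0.28, 0.41, 0.69 and 0.30 and adjusted p-values of 0.0674 to 0.121. Snhg5, like Zfos1, is a host of small nucleolar RNAs, and it was at 15.4, 11, 11.7, 13.3 and 11.1 TPM in CAC replicates 1 to 5 against a mock range of 8.98 to 9.37 TPM. Eml2, a microtubule-associated protein, was at 208, 189, 162, 179.9 and 148 TPM against 140.4 to 147 TPM. For both genes the groups did not overlap and CAC replicate 1 was highest. The leading lower genes were Rnf180, Hist1h2be, Anapc13, Ptpn7 and Lpl, with adjusted p-values of 0.158 to 0.203. Hist1h2be, a replication-dependent histone H2B gene, was at 0.949, 0.986, 1.5, 1.69 and 1.24 TPM in CAC and at 2.07 to 3.3 TPM in mock, again without overlap. Lpl, the lipase that releases fatty acids from circulating lipoproteins, was at 12.5, 17.6, 18.9, 11.9 and 22.3 TPM in CAC against 18.8 to 25.8 TPM, with CAC replicates 3 and 5 inside the mock range and replicates 1, 2 and 4 below it. Replicates 1 and 4, the lowest for Lpl, were also those low in striatum markers. The Lpl difference of -0.42 was -0.22 with the striatum score as a term and -0.13 with lane as a term, and the Ptpn7 difference of -0.52 was -0.20 with the striatum score and -0.32 without CAC replicate 1.

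A pair of RNA-binding proteins that are induced by cooling, Rbm3 and Cirbp, was looked up after the values were seen. Rbm3 was at 123, 122, 88.9, 103 and 72.3 TPM in CAC replicates 1 to 5 and 67.7, 62.6, 62.9, 55.4 and 68 TPM in mock replicates 1 to 5. All 5 CAC libraries were above all mock libraries, yet the difference of 0.65 ± 0.16 did not pass (adjusted p = 0.121). Cirbp was at 138, 103, 81.2, 88.1 and 83 TPM in CAC against 64.4 to 83.5 TPM in mock, where CAC replicates 3 and 5 overlapped mock (0.43 ± 0.18, adjusted p = 0.298). The body temperatures of the mice are not analysed here.

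The 5 CAC libraries differed widely among themselves. Replicates 1 to 5 had 6108, 5557, 3334, 6563 and 1393 genes above all 5 mock libraries, and 3766, 2592, 1056, 1822 and 4946 genes below them. The 5 NCAC libraries had 1327 to 2357 above and 1412 to 2830 below. CAC replicates 1, 2 and 4 were above the mock range for 40.4%, 36.8% and 43.4% of genes, replicate 3 for 22.1% and replicate 5 for 9.22%, whereas replicate 5 was below it for 32.7%. Averaged over all tested genes, the differences of CAC replicates 1 to 5 from the mock mean were 0.062, 0.065, 0.035, 0.11 and -0.065. These counts and means are on the deposited scale. The TMM factors were 1.02, 1.03, 1.01, 1.06 and 0.929 in CAC replicates 1 to 5 and 0.934 to 1.01 in mock. The part of scaling in the counts was not tested. Replicate 1 had 301 genes more than 1 log2 unit above the mock mean and 259 more than 1 below, against 17 and 14 in replicate 3.

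The genes that separated CAC from mock at 8 weeks gave a further view of each mouse. At 8 weeks, in other mice and with other mock libraries, 734 genes were called higher (4.86% of the genes tested) and 558 lower (3.69%). Of the 734 higher genes 674 (91.8%) were also higher in CAC at 4 weeks, beside 63.5% of all tested genes, and their median difference at 4 weeks was 0.12, beside 0.037 for all and 0.27 for the same genes at 8 weeks. Of the 558 lower genes 432 (77.4%) were lower at 4 weeks, beside 36.3% of all genes, with a median of -0.078 at 4 weeks and -0.36 at 8 weeks. At an unadjusted p under 0.05 at 4 weeks 198 of the higher genes were higher (27%, beside 10.5% of all genes) and 67 of the lower genes were lower (12%, beside 2.41%). Only 3 of these 1292 genes were called at 4 weeks, and no test was made of the sets. After TMM scaling the counts in the same direction were 594 and 483, where the median of all genes was -0.00023. Without CAC replicate 2 they were 602 and 334 with medians of 0.075 and -0.032, beside 0.030 for all genes.

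CAC replicate 2 stood nearest to the pattern of 8 weeks. The mean difference from mock over the 734 genes was 0.13, 0.34, 0.084, 0.22 and -0.073 in CAC replicates 1 to 5. Single mock libraries ran from -0.088 to 0.050 and NCAC libraries from -0.072 to 0.058. Over the 558 lower genes the means were -0.055, -0.29, -0.057, -0.045 and 0.011 in CAC replicates 1 to 5, with mock libraries from -0.096 to 0.079. By these means CAC replicate 2 was outside the mock range in both directions. Replicates 1, 3 and 4 were outside it only among the higher genes, and replicate 5 in neither set. The means were not corrected for the mean of each library over all tested genes. That was 0.062, 0.065, 0.035, 0.11 and -0.065 in CAC replicates 1 to 5 and -0.063 to 0.039 in mock. The reading of single libraries can therefore depend on scaling. In replicate 2, 592 of the 734 genes (80.7%) were above all mock libraries, beside 36.8% of all tested genes, and 388 of the 558 (69.5%) were below, beside 17.1%. The corresponding shares were 51.5% and 36.2% in replicate 1, beside 40.4% and 24.9%, and 39.6% and 19.2% in replicate 3, beside 22.1% and 6.99%. They were 57.6% and 23.7% in replicate 4, beside 43.4% and 12.1%, and 12.5% and 13.3% in replicate 5, beside 9.22% and 32.7%.

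**Figure D2:**
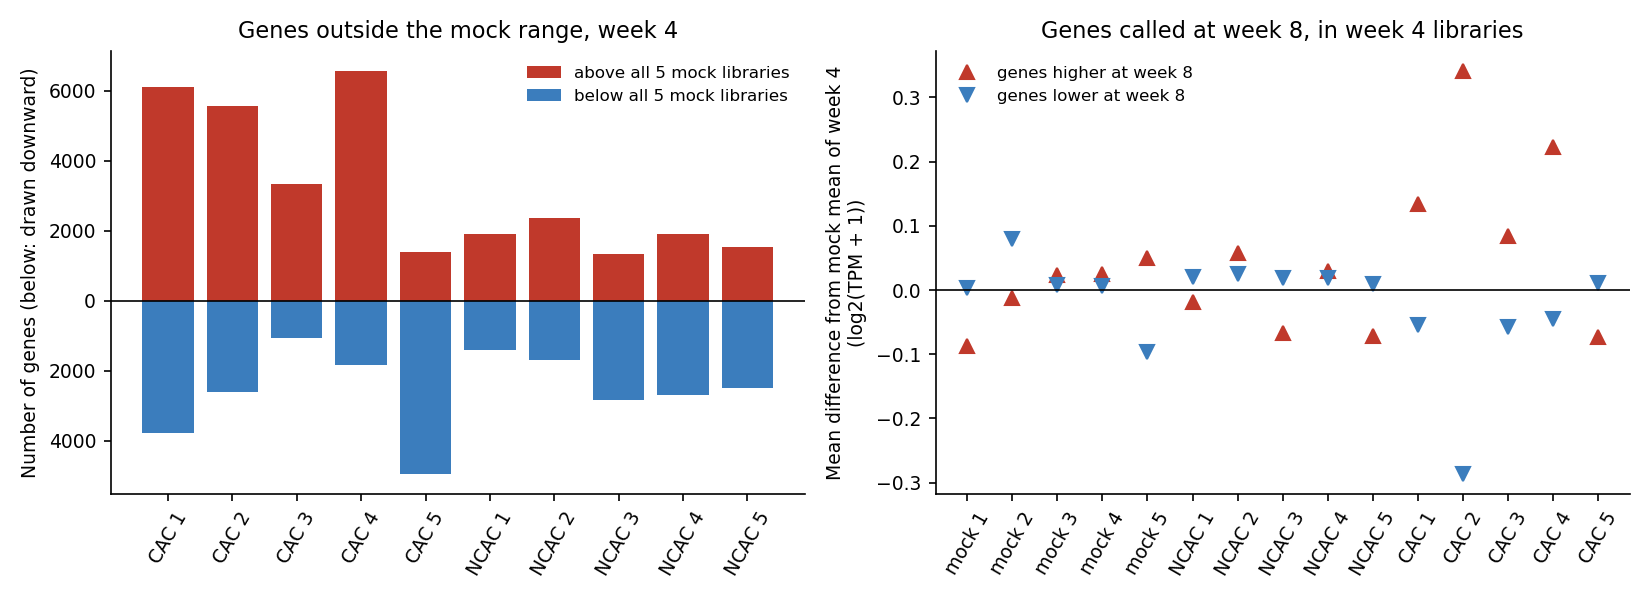
Left, number of genes above (upward) and below (downward) all 5 mock libraries in each CAC and NCAC library of week 4. Right, mean difference in log2(TPM + 1) from the mock mean of week 4 over the genes called higher (upward triangles) or lower (downward triangles) at 8 weeks, 1 point per library, where CAC replicate 2 reaches 0.34 and -0.29.

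**Figure D3:**
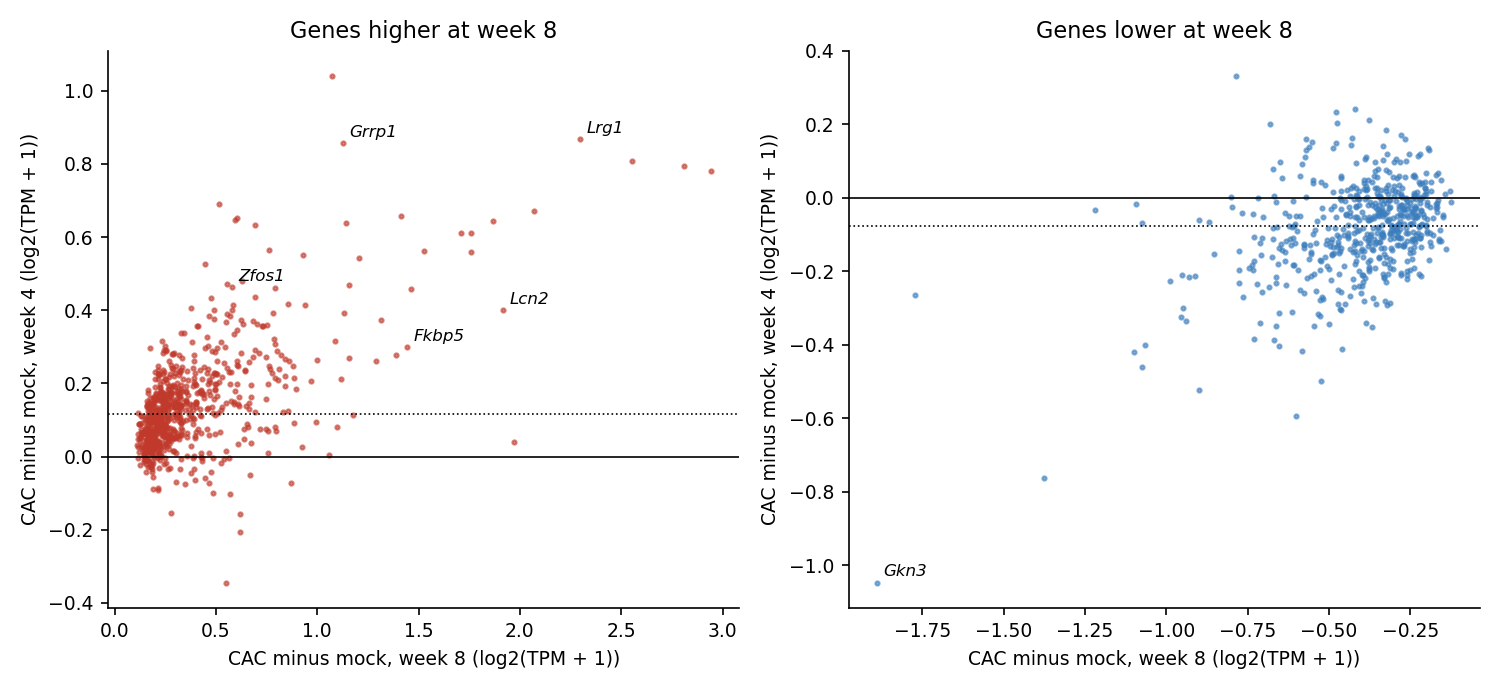
Difference of CAC from mock in log2(TPM + 1) at week 8 (x axis) and week 4 (y axis) for genes called higher (left) or lower (right) at week 8, 1 point per gene, with a dotted line at the median of week 4 (0.12 and -0.078). Most points on the left lie above 0 and most on the right below 0.

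Whether the difference at 4 weeks was unlike that at later weeks was tested directly. Testing how far the CAC to mock difference at 8 weeks departed from that at 4 weeks gave 0 called genes with limma and 0 with voom, with 1420 genes at an unadjusted p under 0.05. From 4 to 6 weeks it gave 0 with either tool, with 661 such genes. The count from 4 to 8 weeks was 24 without CAC replicate 2 of week 4, 13 without CAC replicate 3 of week 8 and 1 without CAC replicate 1 of week 8. The lowest adjusted p from 4 to 8 weeks was 0.0686, shared by Lcn2, with a change of 1.52, and Hpgds, a prostaglandin D synthase, with a change of -0.88. Hpgds was looked up after its values were seen.

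Among the genes with the lowest p at 8 weeks, several that encode secreted proteins were above mock in some CAC mice of 4 weeks and not in others. Lcn2, an iron-siderophore carrier that also acts on appetite centres, was at 0.796, 2.17, 0.301, 1.31 and 0.201 TPM in CAC replicates 1 to 5 and 0.365, 0.401, 0.631, 0.435 and 0.15 TPM in mock replicates 1 to 5. Replicates 1, 2 and 4 were above all mock libraries, and replicates 3 and 5 within their range. The group difference was 0.40 ± 0.22 (adjusted p = 0.444). It was 0.20 without CAC replicate 2, and with lane as a term its sign turned, at -0.11. Lcn2 and Lrg1 are also made by neutrophils, and blood markers moved in some of the same libraries. The mean log2(TPM + 1) of 10 neutrophil and monocyte markers was 1.16, 1.78, 0.849, 1.01 and 0.769 in CAC replicates 1 to 5 and 0.770 to 1.34 in mock, so that replicate 2 alone was above mock (summed level 11.7 to 44.2 TPM in CAC and 12.1 to 27.1 TPM in mock, no marker at 0 in every library). That of 8 erythroid markers was 6.42, 6.12, 5.48, 5.78 and 5.32 in CAC and 4.81 to 5.68 in mock, and replicates 1, 2 and 4 were above mock. The part of blood in these differences was not tested. By 6 and 8 weeks Lcn2 in CAC stood at 2.27 ± 1.12 TPM (SD, n = 5) and 5.24 ± 3.62 TPM (n = 7), beside 0.341 ± 0.121 and 0.501 ± 0.249 TPM in mock (n = 5 each).

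Lrg1 was at 2.71, 8.84, 3.34, 6.16 and 1.8 TPM in CAC and 1.32, 1.82, 1.55, 2 and 2.14 TPM in mock, replicates 1 to 5 in each. Here 4 CAC libraries were above all mock libraries, replicate 2 highest and replicate 4 next, and replicate 5 was within. The difference was 0.87 ± 0.29, with an unadjusted p of 0.00405 and an adjusted p of 0.227, which was 0.0301 without CAC replicate 5. Scgb3a1, a secretoglobin of low level, had 0.624, 3.17, 0.959, 2.13 and 0.44 TPM in CAC and 0 to 1.08 TPM in mock, so that replicates 2 and 4 were the only ones above mock. Ch25h, the enzyme that makes 25-hydroxycholesterol, had 1.27, 2.64, 1.01, 2.33 and 0.634 TPM in CAC and 0.456 to 0.778 TPM in mock, and all but replicate 5 were above. Tmem252 and Rtp1 were above the mock range in replicates 2 and 4 and not in the other 3, at 8.46 and 3.77 TPM against a highest mock value of 2.08 for Tmem252, and at 5.98 and 5.14 TPM against 1.79 for Rtp1.

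For Ly6c1, Rhob and Ociad2 the differences at 4 weeks were 0.26, 0.081 and 0.13, and none was called. Ly6c1, a surface protein of brain endothelium, was at 73.1, 89.1, 55.7, 79.3 and 61 TPM in CAC against 48.8 to 66.9 TPM in mock, with replicates 1, 2 and 4 above. Rhob, a small GTPase of endosomes, and Ociad2, a mitochondrial protein, were above mock in replicate 2 (439 against at most 368 TPM, and 112 against at most 85.4 TPM), and Ociad2 also in replicates 1 and 4 (89 and 86.7 TPM).

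Of the 10 lower genes with the lowest p at 8 weeks, all had a negative difference at 4 weeks and none was called. Gkn3, a marker of arterial endothelium, was at 3.49, 1.02, 7.45, 2.63 and 9.23 TPM in CAC replicates 1 to 5 and 4.71, 8.04, 8.92, 15.1 and 12 TPM in mock replicates 1 to 5. Replicates 1, 2 and 4 lay below all mock libraries, with replicate 2 the lowest (-1.05 ± 0.33, adjusted p = 0.204). Apln, the ligand apelin, was at 19, 12.6, 21.1, 16.1 and 26.4 TPM in CAC against 21.3 to 28.5 TPM, where replicate 5 alone was within the mock range. Serpinb1a, an inhibitor of neutrophil proteases, was at 10.9, 7.95, 12.9, 9.6 and 13.9 TPM against 12.6 to 16.9 TPM, and replicates 1, 2 and 4 were below mock. P2ry13, a purine receptor of microglia, was below mock in replicates 1 and 2 (14 and 9.51 against at least 14.3 TPM). Alpl, the alkaline phosphatase of vessels, was below in replicates 2 and 3 at 2.89 and 4.85 TPM against at least 5.19 TPM. Ighm, the immunoglobulin heavy chain of B cells, was at 75.3, 24, 46.7, 30.1 and 50.2 TPM in CAC and 42.7 to 60.1 TPM in mock, with replicate 1 above and replicates 2 and 4 below the mock range. For Emp2, Ddah1, Slc40a1 and Hmgcs1 the differences were -0.21, -0.10, -0.11 and -0.18. In bulk tissue, fewer cells of a type and less RNA per cell cannot be told apart.

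Cytokine and acute phase genes were next. Of 17 tested members none was called, 14 were positive, 4 had an unadjusted p under 0.05 in the higher direction (10.5% of all genes did), and the median was 0.14. Osmr, the oncostatin M receptor subunit, was at 1.63, 2.54, 1.21, 2.73 and 1.28 TPM in CAC replicates 1 to 5 and 0.931, 1.33, 1.04, 1.11 and 0.765 TPM in mock replicates 1 to 5. Replicates 1, 2 and 4 were above mock and replicates 3 and 5 within (0.47 ± 0.12, adjusted p = 0.158). Socs3 was at 5.01, 4.48, 2.65, 5.39 and 2.14 TPM in CAC against 2.34 to 3.01 TPM, with replicates 1, 2 and 4 again above the mock range and replicates 3 and 5 within or below it (0.40 ± 0.14, adjusted p = 0.262). With lane as a term the Socs3 difference was 0.065. Ptgs2, the inducible cyclooxygenase, was at 5.02, 8.99, 6.99, 8.93 and 3.09 TPM against 2.15 to 8.12 TPM (0.57 ± 0.28, adjusted p = 0.375). Leaving out CAC replicate 1, 2, 3, 4 or 5 gave 6, 3, 6, 2 or 7 members at an unadjusted p under 0.05 in the higher direction.

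The promoters of 9 genes of these results were searched on both strands for TTCNNNGAA, the palindrome to which STAT factors bind. A second palindrome, TTGNNNCAA, was searched in the same way, and no factor is assigned to it here. Among 27025 RefSeq promoters of GRCm38.p6, 7.18% held the first and 5.11% the second within the 250 bases before the start. None of the 9 held the second. The first was found in those of Zfp459 (chr13:67421419-67421668, minus strand) and Socs3 (chr11:117969367-117969616, minus strand). Zfp459 is shown as the called gene of lowest p, and Socs3 as the feedback gene of the STAT3 route, with the match in capitals. Whether Zfp459 belongs to that route was not tested.
Zfp459: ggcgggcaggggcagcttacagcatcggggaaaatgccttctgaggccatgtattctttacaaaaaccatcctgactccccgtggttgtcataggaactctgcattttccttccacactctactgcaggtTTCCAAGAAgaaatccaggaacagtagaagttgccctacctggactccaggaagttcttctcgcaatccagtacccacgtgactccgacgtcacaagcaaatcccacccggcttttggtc
Socs3: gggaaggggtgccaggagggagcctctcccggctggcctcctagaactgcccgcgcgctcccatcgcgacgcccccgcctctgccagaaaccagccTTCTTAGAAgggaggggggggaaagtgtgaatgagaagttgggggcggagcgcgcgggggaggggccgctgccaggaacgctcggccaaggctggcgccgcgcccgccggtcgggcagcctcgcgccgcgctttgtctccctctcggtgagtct
The windows of Lcn2, Lrg1, Osmr, Grrp1, Diablo, Ccdc9 and Fkbp5 held no such letters, which says nothing about binding elsewhere. A match is a description of the sequence and not a site shown to be used.

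Glucocorticoid-induced genes were positive without a single call. All 22 members were tested, 22 were positive (20 after TMM scaling), none was called, 0 had an unadjusted p under 0.05, and the median was 0.19 beside 0.037 for all genes. Fkbp5 was at 15.6, 51.1, 22.1, 32.9 and 14.9 TPM in CAC replicates 1 to 5 and 13.6, 16.4, 22.3, 23.6 and 25.2 TPM in mock replicates 1 to 5. Replicates 2 and 4 were above all mock libraries and the other 3 within their range (0.30 ± 0.25, adjusted p = 0.64). With lane as a term the difference was -0.14. Sult1a1, a sulfotransferase, and Map3k6, a stress kinase, were above the mock range in the same 2 libraries, at 50.4 and 45.3 against at most 24.7 TPM and at 6.9 and 5.31 against at most 2.45 TPM. Mock libraries themselves spread widely for these genes, with Hif3a, a hypoxia-inducible factor subunit, at 1.16 to 5.98 TPM in mock and 5.15, 11.1, 4.78, 7.92 and 1.51 TPM in CAC. The median of the list was 0.27, 0.048, 0.18, 0.069 and 0.35 without CAC replicates 1 to 5 in turn, and 15 members were positive without replicate 2. The number at an unadjusted p under 0.05, all higher, was 2, 0, 3, 0 and 8 in the same order.

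**Figure D4:**
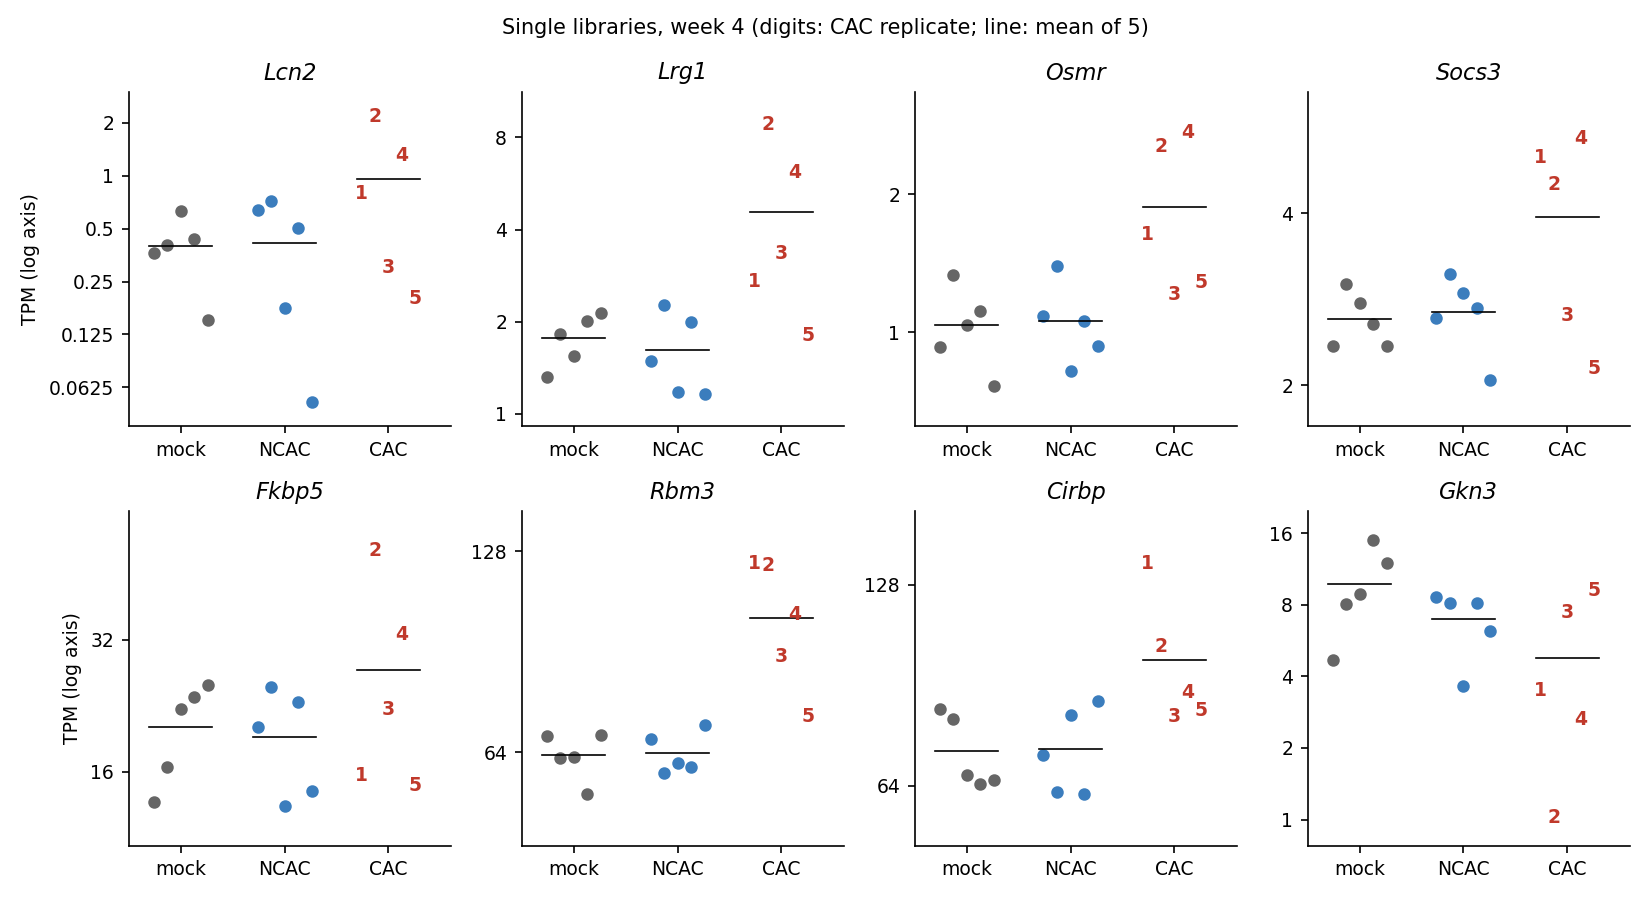
TPM (log axis) of 8 genes in each library of week 4, with digits naming the CAC replicate and a line at the mean of 5 libraries. For Lcn2, Lrg1 and Fkbp5, CAC replicates 2 and 4 are the highest libraries and replicate 5 lies among mock, and for Rbm3 all 5 CAC libraries lie above mock.

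**Figure D5:**
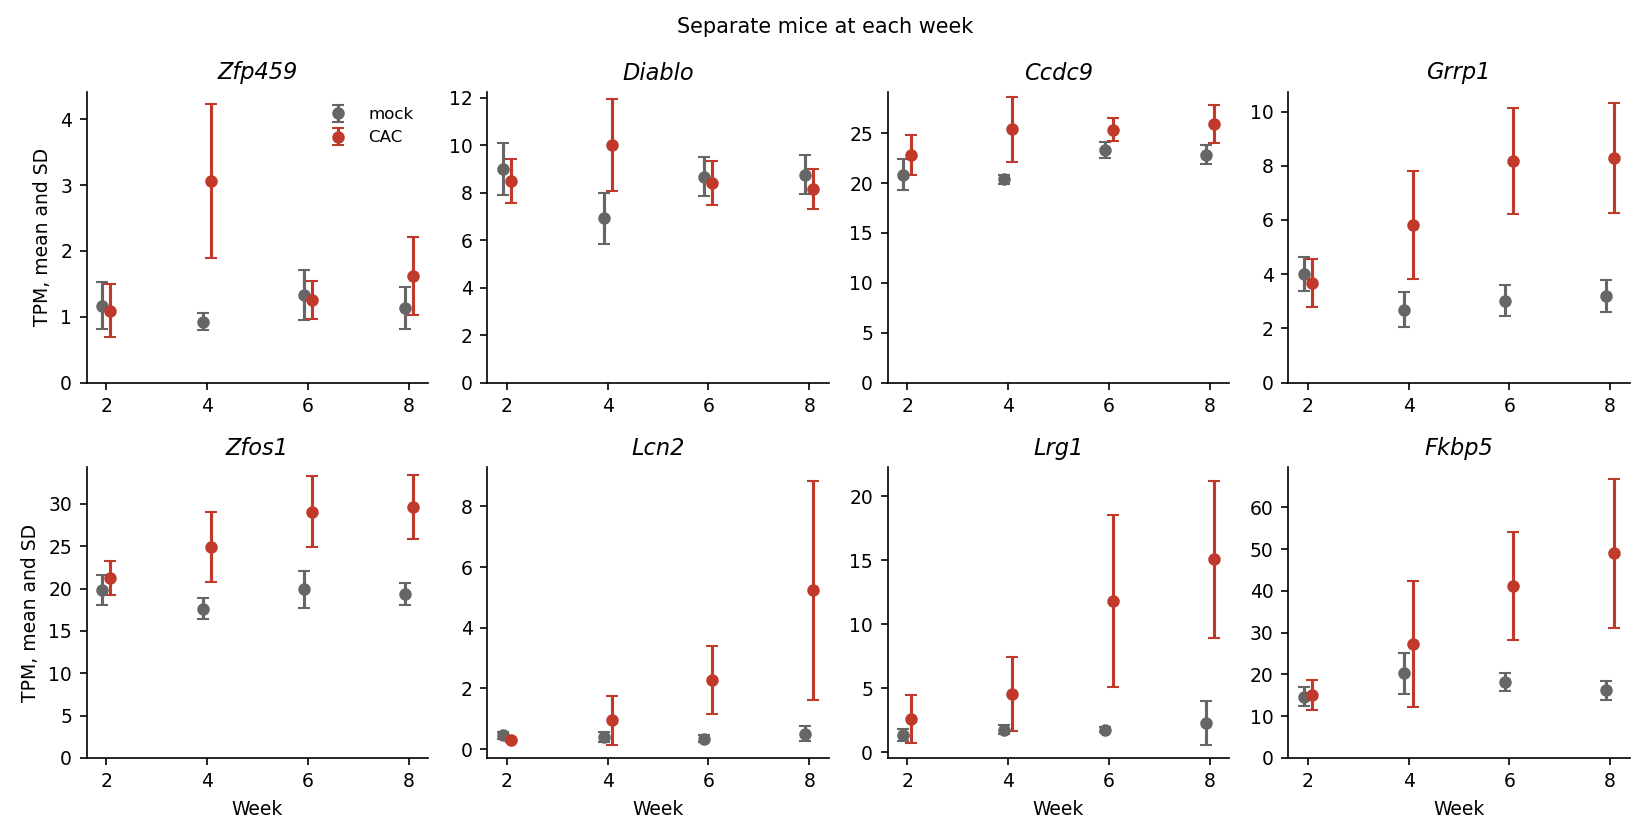
Mean and SD of TPM in mock (grey) and CAC (red) at weeks 2, 4, 6 and 8 for 8 genes, from separate mice at each week (n = 5, and 7 for CAC at week 8). Zfp459 and Diablo were called at week 4 and not at weeks 6 and 8. Grrp1 and Zfos1 were called at all of weeks 4, 6 and 8, and Ccdc9 at weeks 4 and 8 and not at week 6. Calls at week 2 are not given. Lcn2, Lrg1 and Fkbp5 of CAC have their highest means at week 8.

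Clock genes form the feedback loop that sets daily rhythm. Of 19 tested, none was called, 17 were positive (17 after TMM scaling), beside 63.5% of all genes, and 6 had an unadjusted p under 0.05, all higher, beside 10.5% of all genes. Their median was 0.17. Per3, a repressor of the loop, was at 27.7, 21.6, 17.4, 21.1 and 11.5 TPM in CAC and 10.5 to 19.2 TPM in mock (0.39 ± 0.16, adjusted p = 0.309). Cry2, another repressor, was at 83, 85.6, 77.1, 78.3 and 63.6 TPM against 59.7 to 72.9 TPM, above mock in all but replicate 5. The number at an unadjusted p under 0.05 was 2, 0, 6, 4 and 8 without CAC replicates 1 to 5 in turn. After TMM scaling it was 3, all higher, where 1056 of all 15115 genes were higher at that p. The hour at which each mouse was sampled is not analysed here, and its part in the result was not tested.

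Genes of cholesterol synthesis were mostly negative. Of 21 tested, 18 were negative, none was called, and the median was -0.11. After TMM scaling 20 were negative and 7 had an unadjusted p under 0.05 in the lower direction. In that scale the median of all genes was -0.00023, and 1056 of the 1937 genes at that p were higher. In the deposited scale 3 had an unadjusted p under 0.05 in the lower direction, beside 2.41% of all genes. They were Nsdhl, Msmo1 and Hmgcs1. Nsdhl, a sterol dehydrogenase, was at 23.2, 18.6, 24.6, 25.1 and 27 TPM in CAC against 26.5 to 29.2 TPM in mock. Msmo1, a sterol oxidase, was at 35.7, 30.8, 37.8, 38.4 and 37.7 TPM against 39.7 to 42.3 TPM, all 5 CAC libraries below mock. Hmgcs1, which makes HMG-CoA, was at 209, 175, 220.0, 211 and 225 TPM against 208 to 259 TPM, with replicate 2 the lowest. Without CAC replicates 1 to 5 in turn 1, 0, 5, 4 and 4 members had an unadjusted p under 0.05 in the lower direction, and without replicate 5 there was also 1 in the higher direction.

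Iron handling genes included Tfrc, the transferrin receptor, at 102, 83.4, 63.2, 59.4 and 55.2 TPM in CAC and 43 to 64.5 TPM in mock (0.44 ± 0.14, adjusted p = 0.205), with replicates 1 and 2 above the mock range. Fth1, the ferritin heavy chain, was at 4665, 5390.3, 4456, 4788 and 4949.6 TPM against 3945 to 4672 TPM (0.18 ± 0.078, adjusted p = 0.329), and replicates 2, 4 and 5 were above mock. Of 10 tested members 7 were positive, beside 63.5% of all genes, none was called and the median was 0.16. At an unadjusted p under 0.05 there were 2, both higher, beside 10.5% of all genes. After TMM scaling there was 1, and the median was 0.11.

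The medians of 4 other lists were nearer to the 0.037 of all genes than that of the iron list. Of 14 reactive astrocyte genes 10 were positive (median 0.089) and Osmr alone had an unadjusted p under 0.05. Of 15 FOXO, fasting and autophagy genes 12 were positive (median 0.079), led by Foxo3 at 0.18 ± 0.066 (adjusted p = 0.269). Interferon-induced genes had 7 of 20 positive (median -0.050) and none at an unadjusted p under 0.05, and 11 were positive without CAC replicate 2 (median 0.0034) or replicate 3 (median 0.038). Immediate early genes, which follow recent neuronal activity, had 7 of 18 positive (median -0.023), but 14 without CAC replicate 1 (median 0.17), 10 without replicate 5 (median 0.072) and 2 without replicate 2 (median -0.19). Npas4 was at 9.63, 19.96, 11, 24.6 and 7.05 TPM in CAC against 5.01 to 11 TPM (0.71 ± 0.33, adjusted p = 0.348). No member of these 4 lists was called.

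Region and cell type markers were read beside these results. Excitatory cortical neuron markers averaged 5.12 to 5.48 on the log2(TPM + 1) scale in CAC libraries and 5.14 to 5.40 in mock. Striatum markers were also high in mock, at 5.81 to 6.41, and in CAC replicates 1 to 5 they averaged 3.37, 6.13, 6.15, 4.92 and 6.33. Replicates 1 and 4 were below every mock library. Adora2a, an adenosine receptor of striatal neurons, was at 2.83, 78.2, 108, 39.4 and 144 TPM in CAC against 86.9 to 132 TPM in mock. Penk, the enkephalin precursor, was at 37.7, 612, 699, 302 and 838 TPM against 555 to 953 TPM. All 14 striatum markers were negative, 11 of them at an unadjusted p under 0.05 (median -0.63), and none was called. Without CAC replicate 1 none had an unadjusted p under 0.05 (median -0.19), without replicate 4 there were 6 (median -0.49), and without replicate 5 9 were called lower.

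Other markers varied by library as well. Thalamus markers averaged 4.07 in CAC replicate 4, where Plekhg1, one of them, was at 17.8 TPM, and 2.84 to 3.02 in the other CAC libraries, beside 2.83 to 3.25 in mock. The summed level of the erythroid markers was 1962 to 4555 TPM in CAC and 1403 to 2736 TPM in mock, and none of the 8 was at 0 in every library. Choroid plexus markers averaged 1.88, 3.60, 3.92, 4.01 and 2.95 in CAC replicates 1 to 5 and 2.34 to 3.73 in mock, so that replicate 1 was below mock and replicates 3 and 4 above. Microglia markers were negative for 12 of 14 tested (median -0.13), and none had an unadjusted p under 0.05. Among astrocyte markers 2 of 12 had one, Aldoc (0.21 ± 0.07) and Sox9 (0.26 ± 0.11), both higher, beside 10.5% of all genes. After TMM scaling 1 astrocyte marker was higher and 1 lower at that p, with 7 of 12 positive. Endothelial markers had 5 of 12 positive (median -0.045). Ly6c1 and Slco1a4, an organic anion transporter of the blood-brain barrier, were higher at an unadjusted p under 0.05, and 1 endothelial marker was after TMM scaling. With the striatum score of each library as a term in the fit, Zfp459 was the 1 gene called, Diablo was at 0.38 (adjusted p = 0.701), Socs3 at 0.25 and Ptpn7 at -0.20, and the part of the other marker lists was not tested. In that fit the count of late genes in the same direction was 674 of 734 and 463 of 558.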

How the data were processed

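Neocortex RNA was made into libraries with a TruSeq stranded mRNA kit and sequenced on an Illumina NovaSeq instrument, per the labels' protocols. The genome build was mm10, per the submitters' processing notes, and the aligner, the quantifier and strand setting were not given in the sources used here. The deposited table holds the authors' TPM for 47643 symbols in 62 libraries. From it, log2(TPM + 1) was fitted in R 4.3.3 with limma 3.58.1 (trend, 12 groups, 50 residual df). Tested were 15115 genes whose mean reached 1 TPM in at least 1 group, with Benjamini-Hochberg adjustment at 0.05. The fit was also run on simulated data in which a gene had the same spread in every group. That run cannot speak for libraries of unequal spread. Sample quality weights at week 4 were 0.19 to 1.98 in CAC and 0.95 to 1.68 in mock. Among values of 0.5 to 10 estimated reads, 86.3% were whole within 0.05, so voom on estimated reads is an alternative only. The comparison, the genes and the 28 gene lists were chosen with earlier results of these data known. Named are the called genes, the 5 leading uncalled genes in each direction, the 10 leading genes of 8 weeks in each direction, up to 4 leading members of a list, the 6 genes of largest spread among CAC libraries, and genes known from the earlier analysis. In the table, 27 symbols had been turned into dates and 4 rows repeat a symbol. Alternatives changed the pseudocount, filter, scaling, weights, block, lane, striatum term and libraries used. A result under this rule is not reported here.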

Additional observations from a re-analysis of the deposited data

Results flagged for a closer look

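In 14 results a single library lay far from the other 4 of its group, by a gap over range above 0.71, the 95% value for 5 samples. The rule was applied to 139 genes in each of 2 groups and to the library summaries. Chance gives about 1 in 20 such groups, which is near the 14 found, so the list is a description only. The genes included the 6 chosen for the largest spread among CAC libraries, a choice that favours a far CAC library. There were 8 in CAC and 6 in mock.

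CAC replicate 2 had a mean difference of -0.29 over the genes called lower at 8 weeks, the next lowest CAC library being at -0.057. It also had 6.32 TPM of Ngp, a neutrophil granule gene, where the next CAC library had 1.22 TPM. CAC replicate 4 had a thalamus marker score of 4.07 against 3.02 for the next. In the same library Plekhg1 was at 17.8 TPM (next 6.73), Myh11, the smooth muscle myosin, at 7.22 TPM (next 6.14) and Cwc22 at 223 TPM (next 10.6). CAC replicate 1 had 2.92 TPM of Calca, the precursor of CGRP (next 1.51), and 122 TPM of Rpl14-ps1 (next 29.4).

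Among mock libraries, replicate 4 had the highest Hist1h2be at 3.30 TPM (next 2.42) and Foxo1 at 19.7 TPM (next 15.8), and the lowest Calca at 0.931 TPM (next 1.24). Mock replicate 3 had 6.77 TPM of Alas2, an enzyme of haem synthesis in red cells (next 4.76). Mock replicate 5 had 364 TPM of Hba-a2, an alpha globin (next 44.8), and mock replicate 2 had 315 TPM of Rpl14-ps1 (next 9.13). Hba-a2 and Rpl14-ps1 have near-identical copies, so their values are uncertain.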

How the results depend on the processing

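The count of 5 called genes was 2 without a filter on level, 1 with TMM scaling, 2 with sample quality weights, 0 with lane as a term, 0 in the fit of only the groups compared, 1 without 3 libraries that stood apart in an earlier analysis (CAC replicate 1 of week 4, mock replicate 5 of week 2 and CAC replicate 3 of week 8), 1 with the striatum score as a term and 1 with voom. Leaving out single libraries gave 1 to 747. Of the 747 genes called without CAC replicate 5, 101 were also called in the same direction at 8 weeks and 0 in the opposite one. For the change from 4 to 8 weeks the count of 0 was 62 with sample quality weights, 2 in the fit of only the groups compared, 3 without those 3 libraries, and 0 to 24 leaving out single libraries. From 4 to 6 weeks it was 2 with sample quality weights. For CAC against NCAC the count of 1 was 0 without a filter on level, with lane as a term, in the fit of only the groups compared, without the same 3 libraries and with the striatum score as a term, and 0 to 1572 leaving out single libraries. The cause was not tested. The counts of late genes in the same direction stayed within 1.5 times, at 522 to 688 of the higher and 334 to 483 of the lower genes. With the replicate number as a block the count was 5, though Zfos1 was not among the genes kept (adjusted p = 0.0522), and same-numbered CAC and mock libraries had correlations of -0.067 to 0.017, so the numbers do not show a pairing. Among the alternatives of single genes, 445 kept their side of the threshold, 21 passed it newly and 61 no longer passed it, and no called gene reversed. The filter on the mean of all libraries (6 calls), voom and the alternatives of the late gene counts were chosen after seeing the data. Depth was 46.6 to 49.6 M reads in every week 4 library, and its part in the calls was not tested.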

Other observations

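Some genes varied far more between single libraries than between the groups. Cwc22, a splicing factor, was at 10.6, 9.01, 8.67, 223 and 7.58 TPM in CAC replicates 1 to 5 and at 7.3 to 8.54 TPM in mock. Over all 62 libraries 14 had 61.6 to 234 TPM and 48 had 6.36 to 10.99 TPM, with no library between. Those 14 were 1 mock, 5 CAC and 8 NCAC libraries. Tuba1c, an alpha tubulin, was at 87.5, 66.4, 4.06, 7.13 and 2.43 TPM in CAC and 161, 4.54, 169.5, 157 and 3.12 TPM in mock. Both genes have close copies in the mouse genome, so the way reads were shared between copies may enter these values, which was not tested.

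Ttr, the transthyretin made by choroid plexus, was at 159, 1068, 3049, 118 and 1039 TPM in CAC replicates 1 to 5 and 2325, 1417, 1666, 188 and 1513 TPM in mock replicates 1 to 5. CAC replicates 1 and 4 were below all mock libraries and replicate 3 above them. The choroid plexus marker score moved otherwise in replicate 4, where at 4.01 it was above the mock range of 2.34 to 3.73.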
